A study of Homo sapiens with 3 samples.

Results

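Gene expression changes in YB5 cells given both drugs were set against those on the array labelled decitabine, called the decitabine-labelled array here. YB5 is a clone derived from the colon cancer line SW48, and it carries a GFP reporter kept silent by methylation of its CMV promoter. The members were 12971 genes of 18615 that the arrays could name. They were chosen by rule: a probe outside the first 9 columns of spots whose treated signal stood well above background on at least 1 of the 2 arrays compared. By the labels, cells of this array received decitabine at 25 nM, and cells of the array of both drugs received decitabine at 25 nM with carboplatin at 20 μM. Another array, the carboplatin-labelled array, held cells given carboplatin at 20 μM. Each drug was dosed on days 1 to 4 and cells were harvested on day 6. Control cells of the same clone received DMSO. Each treatment had 1 two-colour array, with treated RNA in the green channel (Cy3) and control RNA in the red channel (Cy5), so there was no replicate and no test could be run. All values are from a single cell clone, and the number of arrays limits their precision. Whether the control channels hold the same RNA extract is not stated in the sources used here.

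Decitabine is a cytidine analogue that is built into DNA and traps DNA methyltransferases, so that methylation is lost as cells divide. Genes kept silent by promoter methylation in cancer cells, such as the cancer-testis antigens, are known to become active after such loss. Carboplatin crosslinks DNA and is known to activate p53, which raises genes of cell cycle arrest and apoptosis and lowers genes of mitosis. In a bulk RNA sample a higher level in every cell cannot be told apart from a larger number of expressing cells.

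For each gene, the log2 change (treated over control) on the decitabine-labelled array was subtracted from that on the array of both drugs. A difference of at least 1.5-fold in either direction was called. Both arrays had the same dye in the same channel, so any bias of a probe toward a dye entered both changes and was subtracted out. Probes spotted 10 times on each array gave the technical error of such a difference as an SD of 0.0875 on the log2 scale (207 probes). This SD covers spots within an array and not arrays, dye reactions or cultures.

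The labels of the single-drug arrays and their data went against each other. Of the 25 members on a list of cell division genes that the study assigns to lowering by carboplatin, 21 were at least 1.5-fold lower on the decitabine-labelled array and 3 on the carboplatin-labelled array. Of 38 members on its list of apoptosis genes assigned to raising by carboplatin, 27 were higher on the decitabine-labelled array and 12 on the carboplatin-labelled array. These lists were chosen on the same samples, so the counts are no independent evidence. Of the members, 6.88% were called higher on the decitabine-labelled array and 6.38% lower, against 3.67% and 1.9% on the carboplatin-labelled array. Cancer-testis antigens showed the reverse order: of 20 members, 0 were higher on the decitabine-labelled array and 8 on the carboplatin-labelled array. Of these 20, 13 passed the filter through the array of both drugs alone, and 7 were well above background on the decitabine-labelled array. The filter thus favoured a low count on that array, and this order is no independent evidence either. No array was reassigned. Every direction below is that of the array of both drugs against the decitabine-labelled array, and which single drug that array held is uncertain.

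The control channel of the decitabine-labelled array was dim along an edge of the array, which bears directly on the comparison. Among bright spots in columns 1 to 9, 96.0% were at least 1.5-fold dimmer in that control channel than in the control channel of the array of both drugs. Those columns were left out by rule. The dim zone reached further in a corner. In columns 10 to 12 with rows above 420, 57 of 197 bright spots were at least 1.5-fold dimmer, while above column 12 the share was 0.306%. The treated channels hardly differed there, with a median log2 difference of -0.04. By arithmetic a dimmer control raises treated over control on the decitabine-labelled array and lowers the difference. Counts of lower genes are therefore given both with these columns and from columns above 12 alone, normalized again.

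**Figure D1:**
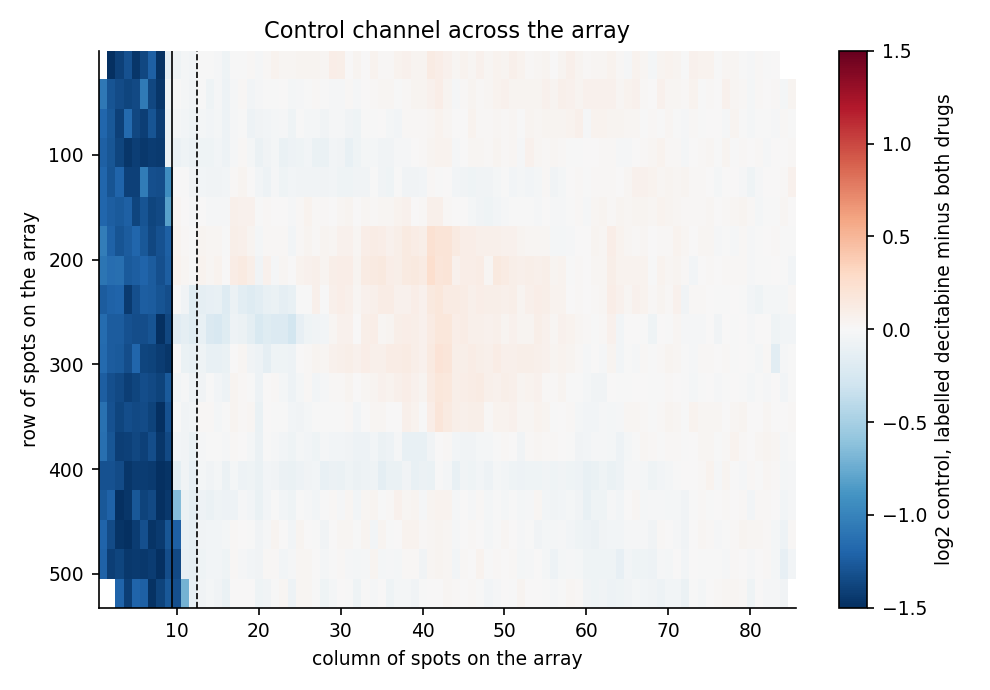
Median log2 difference between the control channel of the decitabine-labelled array and that of the array of both drugs, by column of spots (x axis) and block of rows (y axis), from bright spots, blue where the decitabine-labelled array was dimmer. Columns left of the solid line were left out, and the dim zone reaches past it at the bottom, left of the dashed line that marks column 12.

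With both drugs, 320 of 12971 genes (2.47%) were at least 1.5-fold higher than on the decitabine-labelled array and 55 (0.424%) were lower. From columns above 12 alone, 306 of 12633 genes (2.42%) were higher and 28 (0.222%) were lower. The share of higher genes among those called was 85.3% and 91.6% from columns above 12. The median difference over all members was 0.01. As a measure of how far arrays differ without a difference in treatment, the control channels of the same arrays were compared gene by gene. They differed by at least 1.5-fold upward in 0.802% of genes and downward in 0.347%, and in 0.602% and 0.325% from columns above 12. The treated channels, compared directly without subtracting their controls, differed upward in 2.95% and downward in 0.571%. Of the 320 higher genes, 261 were also at least 1.5-fold higher in that direct comparison. The share of higher genes was above the share by which the control channels differed, while the share of lower genes from columns above 12 was below it. These shares are not on like terms. Members were filtered on treated signal, and 595 entered through the array of both drugs alone, against 77 through the decitabine-labelled array alone. The control channel had no such filter and carried the other dye, so its share gives no measure of chance.

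**Figure D2:**
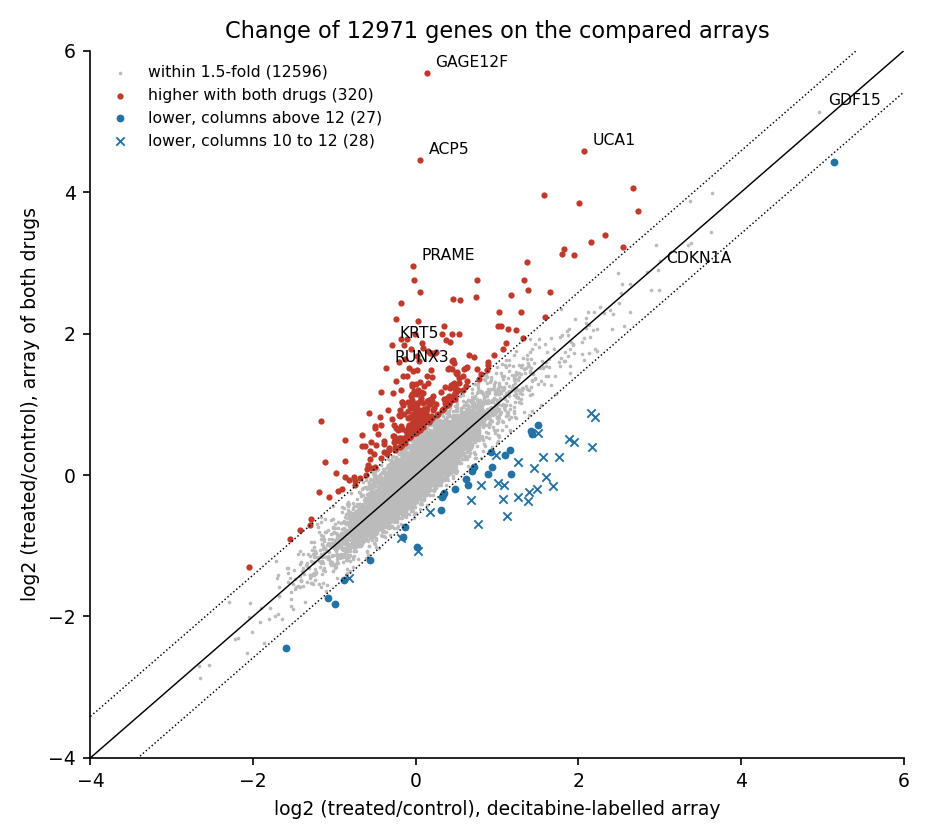
Log2 change (treated over control) of 12971 genes on the decitabine-labelled array (x axis) and the array of both drugs (y axis), with equal change on the solid line and 1.5-fold on the dotted lines. The 320 higher genes (red) lie mostly above an x value near 0, and crosses mark the 28 lower genes in columns 10 to 12.

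Most higher genes were close to their control level on the decitabine-labelled array and above it with both drugs. This held for 212 of the 320. A further 42 were up on both arrays and more so with both drugs, 19 were down on the decitabine-labelled array alone, 5 were down on both arrays and less so with both drugs, 1 was down on the former and up on the latter, and 41 lay within 1.5-fold of control on each array. Over the 320 genes the median log2 change was 0.03 on the decitabine-labelled array, 0.95 with both drugs and 0.55 on the carboplatin-labelled array, beside medians of 0.00, 0.01 and 0.00 over all members. The genes were chosen by the difference itself, which favours such a pattern. Closeness to control on the decitabine-labelled array was also common: over all members 6.88% were up there and 6.38% down. With both drugs 10.0% of all members were up. By size, 116 of the differences reached 2-fold and 16 reached 4-fold. Some of these genes were dim in untreated cells. The control channel was well above background on neither array for 65 of the 320 and for 242 of all 12971 members. A gene with a dim control became a member only where a treated channel was bright. The filter thus favours this contrast, which is no evidence about the higher genes. The treated channel was not well above background on the decitabine-labelled array for 80 of the 320, and these entered through the array where they were bright, so their number is no evidence of a direction. For 52 of the 80 the treated channel ratio was still at least 1.5-fold when computed as a lower bound. Just inside the call stood PRAP1 at 0.59, and just outside stood WFIKKN2 at 0.58.

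The 3 largest differences belonged to GAGE12F, ACP5 and PRAME, and each was near its control level on the decitabine-labelled array. The GAGE12F probe matches a family of near-identical X-linked cancer-testis antigens (named GAGE7 in the files), so the value may belong to any of them. Its treated signal was 65.6 units on the decitabine-labelled array, not well above background, 8164 on the carboplatin-labelled array and 5450 with both drugs. On the background-corrected and normalized channel levels, the scale of every lower bound below, its treated channel was at least 97.2-fold brighter with both drugs than on the decitabine-labelled array. The log2 changes were 0.14, 6.14 and 5.68, and the control channel of this probe also differed between the arrays, by 1.06. ACP5 encodes tartrate-resistant acid phosphatase, an enzyme of osteoclasts and macrophages. Its treated signal was 80.6, 540.9 and 1560 units in the same order, and its log2 changes were 0.06, 3.22 and 4.45, a difference of 4.39. PRAME, a cancer-testis antigen that represses retinoic acid receptor signalling, changed by -0.03, 3.08 and 2.95. Its treated signal was at least 5.71-fold brighter with both drugs than on the decitabine-labelled array, where it was not well above background.

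The promoter windows of the genes with the largest differences are shown because loss of CG methylation is the known action of decitabine. Each runs from 250 bases before to 50 bases after the annotated start, as given by RefSeq for GRCh38.p14, in the direction of transcription, with CG dinucleotides in capitals. The windows of GAGE12F (chrX:49560592-49560891, plus strand), ACP5 (chr19:11578926-11579225, minus strand) and PRAME (chr22:22559216-22559515, minus strand) hold 13, 21 and 13 CG dinucleotides. That of GASK1B (chr4:158172976-158173275, minus strand) holds 3.
GAGE12F: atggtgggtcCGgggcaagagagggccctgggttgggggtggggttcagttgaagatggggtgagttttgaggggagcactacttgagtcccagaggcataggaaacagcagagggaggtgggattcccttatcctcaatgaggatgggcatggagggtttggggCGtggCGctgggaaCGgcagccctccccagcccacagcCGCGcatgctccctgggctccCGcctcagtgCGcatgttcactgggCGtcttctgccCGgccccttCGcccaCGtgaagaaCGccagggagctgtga
ACP5: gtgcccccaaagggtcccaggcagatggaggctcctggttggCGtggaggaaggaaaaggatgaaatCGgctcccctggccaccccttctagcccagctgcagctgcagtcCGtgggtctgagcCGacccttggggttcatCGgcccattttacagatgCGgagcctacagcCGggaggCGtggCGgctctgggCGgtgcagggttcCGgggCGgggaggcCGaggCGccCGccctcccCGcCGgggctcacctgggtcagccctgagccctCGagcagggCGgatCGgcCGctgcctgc
PRAME: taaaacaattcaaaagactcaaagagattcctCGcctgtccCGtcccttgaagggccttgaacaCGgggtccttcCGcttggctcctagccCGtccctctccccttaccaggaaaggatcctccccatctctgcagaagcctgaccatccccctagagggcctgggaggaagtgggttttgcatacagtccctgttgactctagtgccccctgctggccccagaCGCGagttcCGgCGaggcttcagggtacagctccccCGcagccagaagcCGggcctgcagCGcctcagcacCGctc
GASK1B: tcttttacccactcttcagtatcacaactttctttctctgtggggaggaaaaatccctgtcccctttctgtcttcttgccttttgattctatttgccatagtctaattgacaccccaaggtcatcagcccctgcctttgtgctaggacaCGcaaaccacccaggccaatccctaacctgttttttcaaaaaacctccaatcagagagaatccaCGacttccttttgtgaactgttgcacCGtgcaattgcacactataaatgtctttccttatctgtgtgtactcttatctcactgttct

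Among the other 12 genes with the largest differences, some were up on the carboplatin-labelled array as well and some on neither single-drug array. GASK1B, a Golgi kinase-like protein with the CG-poor window above, had log2 changes of -0.18 on the decitabine-labelled array, 0.09 on the carboplatin-labelled array and 2.43 with both drugs. KRT17, a keratin of stressed and basal epithelium, changed by 0.45, 0.41 and 2.49 in that order. Both are among 95 of the 320 genes that were up with both drugs and stayed within 1.5-fold of control on each single-drug array. That count depends on the threshold, and its genes were chosen by the difference itself. UCA1, a long noncoding RNA of carcinomas, was up on every array, by 2.07, 1.82 and 4.58. PGF, placental growth factor, was up by 1.58, 1.97 and 3.97, and KRTAP3-1, a hair keratin-associated protein, by 0.76, 0.75 and 2.76. SLC52A1, a riboflavin transporter, changed by -0.02, 1.76 and 2.76, PDIA2, a pancreatic protein disulfide isomerase, by 0.06, 2.03 and 2.58, and GAMT, an enzyme of creatine synthesis, by -0.10, 1.20 and 1.92.

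In the remaining 4 genes the carboplatin-labelled array and the array of both drugs were close to each other. CYP2W1, a cytochrome P450 of fetal gut and colon tumours, changed by -0.24, 2.68 and 2.21. ICAM2, an adhesion molecule of endothelium and blood cells, changed by 0.03, 2.09 and 2.17. KRT5, a keratin of basal epithelium, changed by -0.30, 2.33 and 1.84. AFAP1-AS1, a noncoding RNA antisense to AFAP1, changed by -0.18, 1.80 and 1.93. The treated channel of SLC52A1, PDIA2, ICAM2, AFAP1-AS1 and GAMT was not well above background on the decitabine-labelled array, and the lower bounds on their treated channel ratios were 9.17, 5.86, 3.79, 3.73 and 3.92-fold. Of the 320 higher genes, 77 had several member probes, 67 of these had all probes on the same side, and in 21 each probe passed 1.5-fold.

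**Figure D3:**
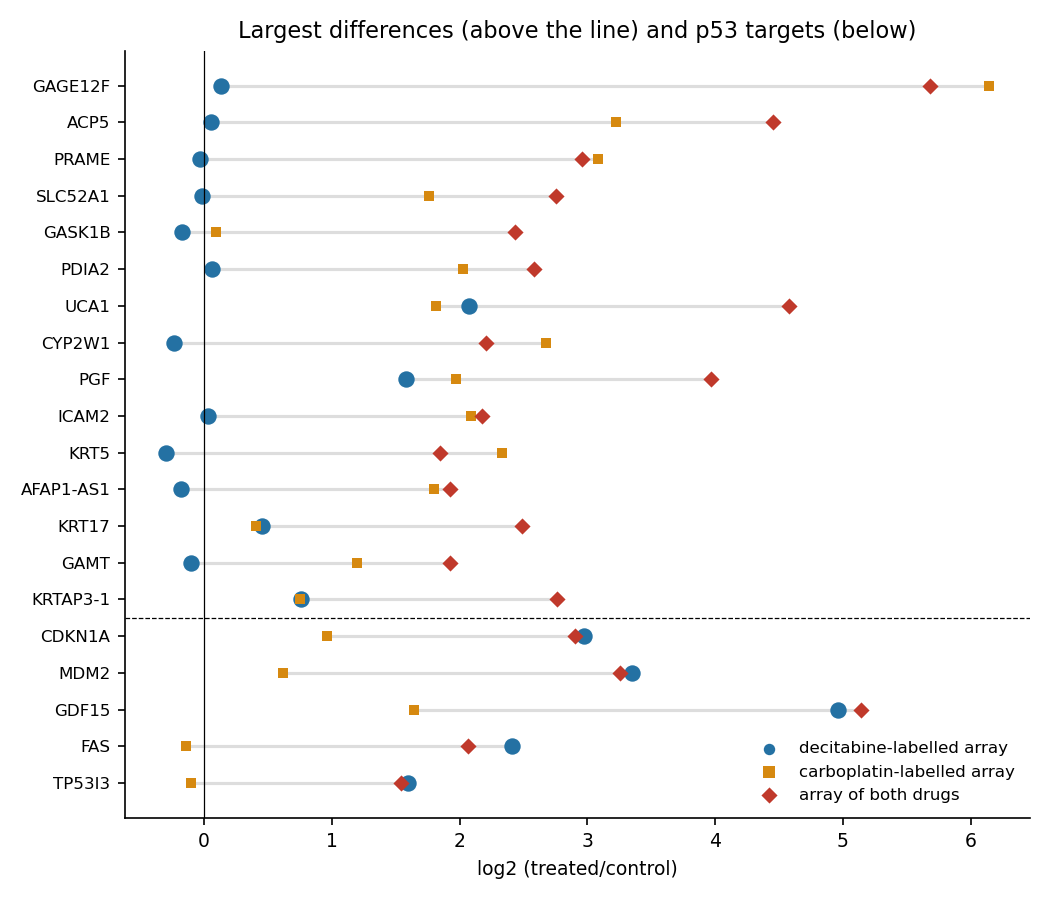
Log2 change (treated over control, x axis) on the 3 arrays for the 15 genes with the largest positive differences and, below the dashed line, 5 p53 targets. In the upper set, chosen by this difference, the array of both drugs (red diamonds) lies right of the decitabine-labelled array (blue circles). For the 5 p53 targets, picked as examples, these arrays lie within 0.34 of each other. Other p53 targets differed more, such as CCNG1 at -0.54 and TNFRSF10C at 0.88.

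Cancer-testis antigens, germline proteins that many tumours express after promoter methylation is lost, included the gene with the largest difference. Of 54 listed genes 41 were measured and 20 were members, of which 13 entered through the array of both drugs alone and 2 through the decitabine-labelled array alone. Of the members, 7 were higher (2.47% over all members) and 0 lower (0.424%), with a median difference of 0.37 beside 0.01 over all members. Members that entered through the array of both drugs alone favour a high count. Over all 41 measured genes, without the filter on dim probes, the median was 0.17 and the same count of 7 was higher, beside 321 of all 17458. After GAGE12F and PRAME came XAGE1A, PAGE5 and PAGE2, X-linked members of multicopy families. XAGE1A changed by 0.09 on the decitabine-labelled array, 1.83 on the carboplatin-labelled array and 1.80 with both drugs, PAGE5 by -0.15, 0.99 and 1.39, and PAGE2 by 0.05, 1.07 and 1.05. CT45A1 and SSX3 were called at differences of 0.90 and 0.62. Probes for GAGE, XAGE1A, CT45A1 and SSX3 may take signal from near-identical copies. LAGE3, the broadly expressed relative of this list, differed by 0.27. Members of the MAGE families that passed the filter lay between -0.14 for MAGEB1 and 0.44 for MAGEA9, none of them called.

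Germline genes silenced by promoter methylation gave 3 higher of 11 members (2.47% over all members) and 0 lower. Of the 11 members 6 entered through the array of both drugs alone, against 595 of all 12971, so the filter itself favoured a high count in this list. The median was 0.23. Over the 36 genes measured, without the filter on dim probes, the median was 0.05 and 3 were higher, beside 321 of all 17458. SOHLH1, a transcription factor of early germ cells, changed by 0.08 on the decitabine-labelled array and 1.87 with both drugs, and its treated channel was at least 2.86-fold brighter. STAG3, a meiotic cohesin subunit, differed by 0.60, and SYCP3, of the synaptonemal complex, by 0.59. SYCP3 was not well above background on the decitabine-labelled array, where the bound on its ratio was 1.32-fold.

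Tumour suppressors methylated in colon cancer gave 5 higher of 28 members (2.47% over all members) and 0 lower, and 8 of the 28 entered through the array of both drugs alone. Entry through that array favoured a high count here too. The median was 0.06. Over the 48 genes measured, without the filter on dim probes, the median was 0.01 and 5 were higher, beside 321 of all 17458. RUNX3, a transcription factor of TGF-beta signalling, had a treated signal of 56.2 units on the decitabine-labelled array, 483.9 on the carboplatin-labelled array and 151 with both drugs, at least 2.34-fold above the first. CDKN2A, which encodes the cell cycle inhibitor p16, was measured by 2 probes that differed by 0.75 and 0.86. Which transcript of the gene they match was not analysed. The control signal of the brighter probe was 5886 units on the decitabine-labelled array and 4852 on the array of both drugs, so the gene was not silent in control cells. By its brighter probe it changed by -1.06 on the decitabine-labelled array, 0.46 on the carboplatin-labelled array and -0.31 with both drugs, so it was lower than in control cells on the first and within 1.5-fold of control on the last. THBS1, an inhibitor of angiogenesis, differed by 0.74, and FBLN2, a matrix glycoprotein, by 0.59. IGFBP3, which binds insulin-like growth factors, was up on both arrays, by 1.58 and 2.23.

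Some genes that the study followed by other means were members here, and of these PDLIM4 and the HP1 genes were not called. PDLIM4, a cytoskeletal adaptor, had a treated signal of 332.7 units on the decitabine-labelled array and 300.5 with both drugs and differed by -0.13. The HP1 genes, readers of histone H3 lysine 9 methylation, differed little: CBX5 by -0.01, CBX1 by -0.04 and CBX3 by -0.13. Of CBX5 the 2 probes lay on opposite sides of 0. By its brightest probe CBX1 was down on both arrays, by 0.75 and 0.80 below control, while its other probes lay within 1.5-fold of control on each. Within the list of DNA methyltransferases, methyl-CpG readers and HP1 proteins, 0 of 35 members were called, and the largest difference was 0.55, for DNMT3B.

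Epithelial keratins, the intermediate filaments of epithelial cells, gave 8 higher of 18 members (2.47% over all members) and 0 lower, with a median of 0.36 (0.33 over the 20 measured). Of 18 members 17 lay above 0, and 3 had entered through the array of both drugs alone. Beside KRT5 and KRT17, the called genes were KRT81, KRT14, KRT16, KRT23, KRT19 and KRT86. KRT14, the partner of KRT5 in basal cells, had treated signals of 137 units on the decitabine-labelled array, 179.1 on the carboplatin-labelled array and 416.5 with both drugs, for log2 changes of -0.28, 0.09 and 1.16. KRT81, a hair keratin, changed by 0.04, 0.51 and 1.61, and its near-identical relative KRT86 differed by 0.60, so their signals may be shared. KRT19, a keratin of simple epithelium and by far the brightest called member, rose from 14721 to 24331 units, a difference of 0.85. The other simple keratins KRT8 and KRT18 differed by 0.06 and 0.32.

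In the list of integrins, laminins and collagens 7 of 42 members were higher (2.47% over all members) and 0 lower, with a median of 0.19 (0.11 over the 51 measured), and 3 of the 42 entered through the array of both drugs alone. The called members were 6 collagens and THBS1, and no integrin or laminin was called. COL5A1, a fibrillar collagen, had treated signals of 93.1 units on the decitabine-labelled array, 64.9 on the carboplatin-labelled array and 307.5 with both drugs, with log2 changes of 0.75, 0.24 and 2.52. COL9A3 and COL9A2, chains of the same cartilage collagen, differed by 1.55 and 0.82. COL18A1, the basement membrane collagen from which endostatin is cut, rose from 1552 to 3469 units, a difference of 1.17. COL6A1 and COL16A1 differed by 0.71 and 0.62.

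Metallothioneins, small proteins that bind zinc, copper and platinum, had a median difference of 0.50 over 9 members, each above 0, and 2 were called higher (2.47% over all members). Their medians on the separate arrays were -0.50 on the decitabine-labelled array, -0.17 on the carboplatin-labelled array and 0.03 with both drugs. On the decitabine-labelled array 4 of 9 were down and 0 up, and with both drugs 2 were down and 1 was up. MT1E changed by -1.16, -0.23 and 0.76 in that order, with treated signals of 442.3, 832.4 and 1618 units. MT1G was called at 0.61, while MT1X, MT2A and MT1H were not, at 0.54, 0.50 and 0.44. The genes are close copies of each other and their probes may share signal.

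**Figure D4:**
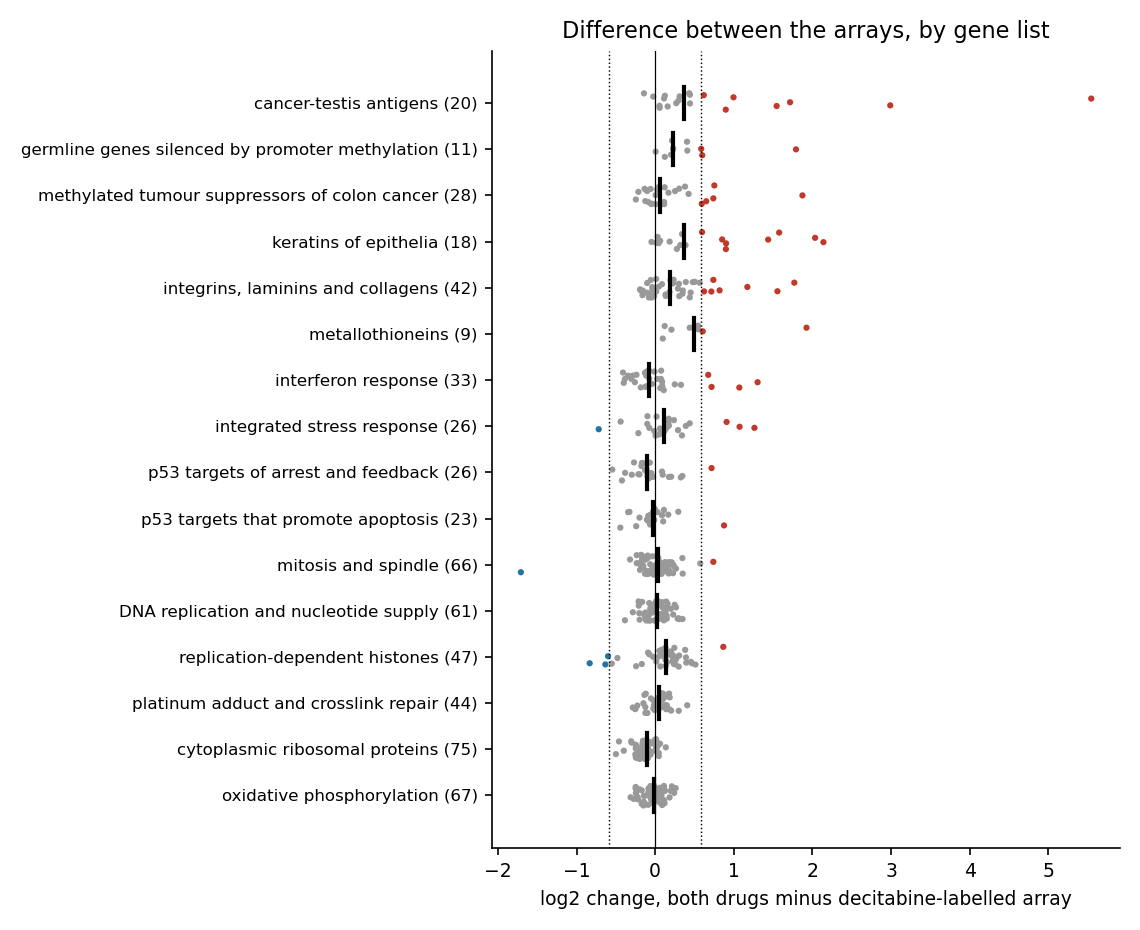
Difference in log2 change (both drugs minus the decitabine-labelled array, x axis) for members of 16 gene lists, 1 point a gene, with the list's median as a bar and 1.5-fold as dotted lines. The medians of keratins, cancer-testis antigens and metallothioneins lie at 0.36 to 0.50, and those of p53 targets, mitosis and replication genes near 0.

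Interferon response genes gave 4 higher of 33 members (2.47% over all members) and 0 lower (0.424%), and the median was -0.08. IFI27 changed by -1.12 on the decitabine-labelled array and 0.18 with both drugs, and IFITM1 by -0.66 and 0.41, so these were lower than control on the former and within 1.5-fold on the latter. IRF7 and TRIM22 were called at 0.67 and 0.72, and TRIM22 is also on the list of p53 targets. Integrated stress response genes gave 3 higher and 1 lower of 26. NUPR1, a stress-induced chromatin protein, differed by 1.26, DDIT4L by 1.07 and the amino acid transporter SLC7A5 by 0.91. ATF3, a transcription factor of the same response, was the lower member: its log2 change was 5.14 on the decitabine-labelled array, -0.03 on the carboplatin-labelled array and 4.42 with both drugs.

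Intestinal genes gave 2 higher of 27 members (2.47% over all members) and 0 lower: VIL1, the villin of the brush border, at 1.06 and LCN2, which binds bacterial siderophores, at 0.83. Both were down on the decitabine-labelled array, by 0.86 and 0.87 below control on the log2 scale, and near control with both drugs, at 0.20 and -0.03. The list as a whole was not higher: its median difference was -0.03 and 12 of the 27 members lay above 0. GATA6 was the most negative member at -0.54, not called. Lists of 28 Wnt target and stem cell genes, 25 NF-kB targets and 24 fatty acid synthesis genes had 1 called member each, which is near the 2.47% over all members: WNT11 at 1.17, ICAM1 at 0.59 and DGAT1 at 0.65.

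Most targets of p53 were up on both arrays. Among 26 targets of arrest and feedback, 21 were up on the decitabine-labelled array and 21 with both drugs (10.0% of all members were up with both drugs), against 8 on the carboplatin-labelled array. The list's median change was 1.36, 1.31 and 0.35 in that order, and the median difference was -0.10. Of the 26, 7 lay above 0 in the difference, as did 6642 of all 12971 members, and the most negative was CCNG1 at -0.54. TRIM22 was the single called member, higher with both drugs, as were 2.47% of all members. CDKN1A, the inhibitor p21, changed by 2.97 on the decitabine-labelled array, 0.96 on the carboplatin-labelled array and 2.91 with both drugs. MDM2, the ubiquitin ligase of p53, changed by 3.35, 0.62 and 3.26, and its 4 probes lay on both sides of 0 in the difference. Among 23 apoptosis targets the medians were 0.95, 0.23 and 1.00, and 7 lay above 0 in the difference. The single called member was the decoy receptor TNFRSF10C at 0.88, where 2.47% of all members were called higher. FAS, a death receptor, changed by 2.41, -0.14 and 2.07, and BBC3, the BH3-only protein PUMA, by 2.55, 0.69 and 2.11, neither difference called. GDF15, a secreted stress cytokine, changed by 4.96, 1.65 and 5.14.

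Most mitosis genes were down on both arrays. Of 66 mitosis and spindle genes 55 were down on the decitabine-labelled array and 54 with both drugs (7.58% of all members were down with both drugs), with medians of -0.93 and -0.92, against 3 and -0.11 on the carboplatin-labelled array. CCNB1, the mitotic cyclin, changed by -1.34 and -1.52. In the difference 1 member was called higher and 1 lower, beside 2.47% and 0.424% over all members. ECT2 was less reduced with both drugs at a difference of 0.74, although its 3 probes lay on both sides of 0. The lower member was CKS1B, which lies in the dim corner. Of 61 DNA replication genes 0 were called, with medians of -0.30 and -0.31. Of 47 replication-dependent histone genes 1 was higher (2.47% over all members), H1-1 at 0.87. Lower were 3 (0.424% over all members), H4C11 at -0.83, H4C6 at -0.63 and H4C12 at -0.60. H4C6 lies in the dim corner, so its value is not read as a change. The median of the list was 0.14. Of 44 platinum repair genes 0 were called, nor were any of 67 oxidative phosphorylation genes, 36 glutathione and NRF2 targets, 31 HOX genes, 29 cholesterol genes or 20 BCL2 family genes. The 75 cytoplasmic ribosomal protein genes had 0 called, with a median of -0.11 that became 0.05 on the scanner software's processed signals.

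Of the 15 genes with the most negative differences, 14 lay in the dim corner, and their values are not read as changes in the treated cells. PPID had the most negative value, -1.85, with a control channel 1.51 brighter on the array of both drugs and a treated channel difference of -0.34. TGFBR2, a TGF-beta receptor, had a value of -1.57 with a treated channel difference of -0.22. For MECR, MTA2, ZBTB17 and AREL1 the treated channel differences were 0.04, 0.12, 0.06 and 0.23, on the other side of 0. CADM2 was the exception outside the corner, with a treated signal of 117.5 units on the decitabine-labelled array and 56.7 with both drugs, where it was not well above background, a bound of at least 1.67-fold.

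From columns above 12 the 28 lower genes held 21 that were also lower in the treated channels compared directly. The genes named here were chosen after their values were seen. BLID changed by 0.02 on the decitabine-labelled array, -0.74 on the carboplatin-labelled array and -1.02 with both drugs. RGCC, a cell cycle regulator induced by p53, changed by 1.42, -0.01 and 0.58. FOSB and FOS, immediate-early transcription factors, were up on the decitabine-labelled array by 1.16 and 0.62 and with both drugs changed by 0.36 and -0.06. EMP1, an epithelial membrane protein, changed by 1.42 and 0.63. The immediate-early gene EGR1 was not called, at -0.44. The values of SLC1A5 and MRPL40 came from the control channel, which was 1.00 and 0.87 brighter on the array of both drugs, while their treated channels differed by 0.20 and 0.06.

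Promoter windows were matched for 212 of the 320 higher genes and 10272 of all members. The median number of CG dinucleotides was 19 in the higher genes and 26 over all members, and 69.8% and 85.2% held at least 10. Higher genes whose treated channel stood well above background on both arrays had a median of 21 (160 genes), and all members detected with both drugs alone had a median of 12 (415 genes). CCCGGG, which reads the same on both strands and holds a CG itself, occurred in 34.0% of the windows of higher genes, 29.4% of those of all members and 20.3% of all 27305 windows in the table. A match describes letters in a window and not its methylation.

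**Figure D5:**
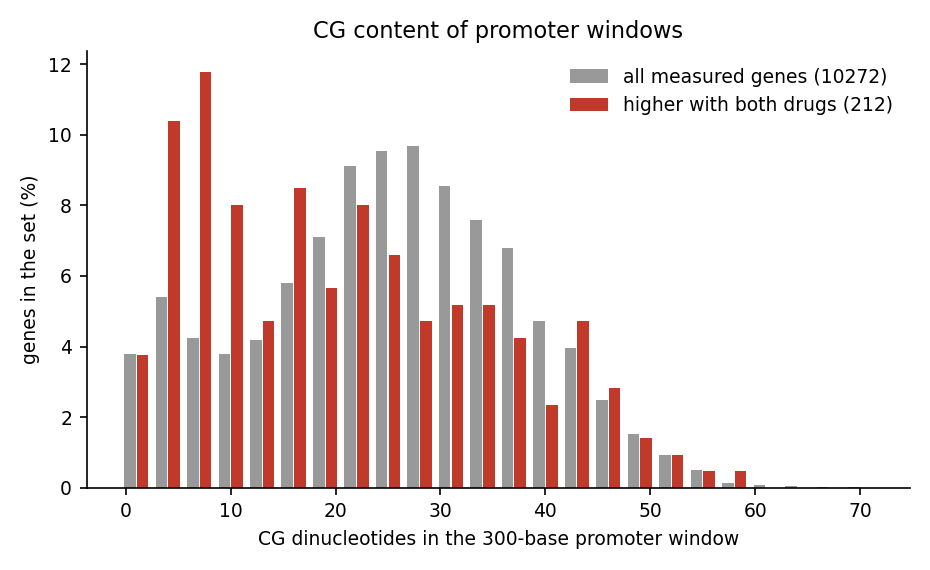
Share of genes (y axis, percent) by number of CG dinucleotides in the 300-base promoter window (x axis, bins of 3), for 10272 measured genes in grey and 212 higher genes in red. The higher genes are spread from 0 to 59 CG dinucleotides. Their share is larger than that of all genes in each bin from 3 to 17, most clearly from 3 to 11, and in some bins from 42 upward.

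By the probe positions of the files (GRCh37), higher genes lay on every chromosome with at least 20 members except chromosome 18, with 0 of 169. Chromosome 21 had 8 of 143 (5.59%), chromosome 16 had 28 of 632 (4.43%), chromosome X 15 of 433 (3.46%) and chromosome 6 had 9 of 676 (1.33%), beside 2.47% over all. The ACP5 probe lies at chr19:11685525-11685584, the PRAME probe at chr22:22890206-22890265, the GASK1B probe at chr4:159045926-159045985 and the KRT5 probe at chr12:52908622-52908681. Whether a probe falls in a coding or untranslated exon was not analysed here.

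The labelled cell type was checked against markers. Of 9 measured markers of colon epithelium 8 were members, with KRT18 at 99572 and 109840 units and CDH1 at 5919 and 5730 units on the decitabine-labelled array and with both drugs. KRT18 was the brightest and made up most of the summed signal of 121800 and 141430 units. Over the 9 markers the median was 194 and 233 units, so many were dim. KRT19 and VIL1 were called higher, as were 2.47% of all members. KRT20 was not well above background with both drugs. Of 10 fibroblast, 10 leukocyte and 6 endothelial markers, 3, 4 and 1 were members, and 0 were called higher or lower. Without the filter on dim probes 1 endothelial marker was higher. Signals in units include local background, whose median was 53.5 units on both arrays, so sums over dim markers are largely background. The summed treated signal of the leukocyte markers was 982 units on the decitabine-labelled array and 1131 with both drugs, of which CD68 made up 359.2 and 483.3. That of the fibroblast markers was 2887 and 2858 units. Their part in the differences above was not tested.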

How the data were processed

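Per the labels, 3 two-colour whole-genome arrays on 1 slide were hybridised. The authors deposited scanner files with spot intensity read by Agilent Feature Extraction (version 9.5.3.1 in the file headers, 8.5.1.1 in the submitters' processing notes), whose log10 ratio of red over green was turned to log2 here, and a table of log2 values that the authors had loess normalized, whose scale and direction were set by comparison with each array's scanner values (Pearson r across probes 0.91 to 0.96). Mean signals were background corrected with limma 3.58.1 in R 4.3.3 (normexp, offset 50, median local background), normalized by loess within each array without control spots, outlier spots or the first 9 columns, and averaged over the spots of a probe. Single channel levels came from Aquantile scaling of the loess-normalized arrays, a step into which both channels enter. The script was tested on simulated data. Of 36907 probes outside the edge, 23705 were named by accession and 2705 by symbol through RefSeq, and 25211 passed the filter on dim probes, 1431 through the array of both drugs alone and 158 through the decitabine-labelled array alone. A gene took its brightest member probe. Of 4811 genes with several, 1895 had probes on opposite sides of 0.

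The genes named were the 15 largest differences each way whose member probes lay on the same side, up to 4 called genes each way of 35 gene lists or else the largest difference, and genes that the study measured by other means, of which an item is not reported here. Genes singled out beyond that rule were chosen after their values were seen. Members and lists were chosen with earlier results of these data known. No test was run, since each treatment had 1 array. In the order decitabine-labelled, carboplatin-labelled and both drugs, 65.0, 68.4 and 68.4% of spots stood well above background in the treated channel and 69.8, 70.2 and 68.2% in the control channel. Saturated spots numbered 5, 4 and 1. Where a treated channel was not well above background, the ratio is a lower bound against the higher of the dimmest level well above background on that array and the probe's own. Alternatives covered signals, background, normalization, filters, threshold and the columns used.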

Additional observations from a re-analysis of the deposited data

How the results depend on the processing

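No paired analysis was possible because each treatment had 1 array. The counts of 320 higher and 55 lower genes stayed within 1.5 times under most alternatives. They became 1037 higher and 177 lower with the scanner software's processed signals, and 813 higher and 204 lower (79.9% higher) with its log ratio. Lower genes numbered 97 with an offset of 10. With all columns of spots, 1289 were lower and the share of higher genes was 20.0%. A 2-fold threshold left 116 higher and 24 lower. Median centring in place of loess gave a share of 78.0%. Columns above 12, an alternative chosen after seeing the data, gave 28 lower genes and a share of 91.6%. The authors' deposited values gave 352 higher and 68 lower genes, and 255 of the 320 and 22 of the 55 remained called.

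Of 69 called genes among those named, 62 kept their sign under each alternative that gave a value and 40 stayed past 1.5-fold. The exceptions in sign, on the authors' deposited values and in treated channels compared directly, were MECR (0.04 and 0.037), MTA2 (0.08 and 0.12), ZBTB17 (0.06 and 0.057), AREL1 (0.22 and 0.23), MRPL40 (0.05 and 0.060) and PHF19 (0.02 and 0.040). The treated channel comparison subtracts no control channel, though the control channel entered the normalization of its levels. MT1E gave -1.37 with all columns of spots, from a probe in the first 9 columns. The median of all genes was 0.01 as reported and 0.10 on the processed signals. List medians ranged over the alternatives, for cancer-testis antigens from 0.12 to 2.04, for keratins from 0.31 to 1.02, for metallothioneins from 0.32 to 0.55, for germline genes from 0.05 to 0.72 and for p53 targets of arrest from -0.14 to 0.00. Signal over background limits the dim genes: 240 of the 320 had a treated channel well above background on both arrays.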
